A study of Mus musculus with 4 samples.

Results

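The Toll-like receptors and adaptors described here are 9 mouse genes chosen by symbol: the receptors Tlr2, Tlr3, Tlr4 and Tlr7, the co-receptor Cd14, the adaptors Myd88 and Ticam1, and the kinases Irak1 and Irak4. They were picked as innate sensors, and the proteins that serve them, proposed to detect fragments of heparan sulfate. Of the 9 genes, 7 were matched by Entrez identifier to the count table of 12700 genes, and Tlr4 and Irak4 are not analysed here. RNA came from C57BL/6 mice aged 9 months, Ids-ko (Ids-/-, the model of Hunter syndrome) or wild type (wt), with 1 library for each of 4 conditions. These are CxH and CxWT for the cerebral cortex (Cx) of Ids-ko and wt mice, and MH and MWT for the midbrain, diencephalon and hippocampus (M) of Ids-ko and wt mice. Each library was made from the pooled RNA of 7 mice, so that neither variation between mice nor variation between pools was measured. Ids, on chromosome X, encodes iduronate 2-sulfatase, the lysosomal enzyme that removes sulfate groups from heparan and dermatan sulfate, and its loss in the Ids-ko mice is not restricted to a cell type.

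Toll-like receptors sense molecules of microbes and of damaged tissue, at the cell surface (Tlr2, Tlr4) or in endosomes (Tlr3, Tlr7). Most of them signal through the adaptor MyD88 and the IRAK kinases to NF-kB, whereas Tlr3 signals through TRIF, the product of Ticam1, towards interferon regulatory factors as well as NF-kB. In the brain microglia carry most of these receptors, and astrocytes are known to express Tlr3.

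Promoter sequences of the RefSeq table (assembly GRCm38.p6) were found for 5 of the 7 genes, namely Tlr2, Tlr3, Myd88, Irak1 and Ticam1. Tlr2 is shown as the gene with the widest range over the libraries, with its highest level in MWT, and Ticam1 as the only gene of the 7 with its lowest level in MWT. Each run is the 250 bases before the start of the gene, 5′ to 3′ on the strand of the gene (minus for both), and capitals mark the matches to the motifs searched. Tlr2 is at chr3:83841609-83841858 and Ticam1 at chr17:56276768-56277017.
Tlr2: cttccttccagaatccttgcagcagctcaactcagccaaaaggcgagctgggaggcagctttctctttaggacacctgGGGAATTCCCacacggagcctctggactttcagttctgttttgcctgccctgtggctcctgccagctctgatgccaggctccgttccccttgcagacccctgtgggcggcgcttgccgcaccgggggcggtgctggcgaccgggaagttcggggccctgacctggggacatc
Ticam1: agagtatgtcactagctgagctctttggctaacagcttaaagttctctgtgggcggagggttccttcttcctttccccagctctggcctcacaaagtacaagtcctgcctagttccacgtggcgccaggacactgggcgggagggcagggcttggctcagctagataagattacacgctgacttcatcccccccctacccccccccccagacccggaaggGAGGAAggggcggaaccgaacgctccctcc

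The motifs, searched on both strands, were NF-kB as GGNNNTTCC, the interferon stimulated element as GAAANNGAA, PU.1 as GAGGAAGT and as the shorter GAGGAA that it contains, AP-1 as TGANTCA and the TATA box as TATAAA. In the Tlr2 window the NF-kB letters matched on both strands in overlapping positions, from 172 to 163 bases before the start. The Tlr3 window held 1 NF-kB match, from 210 to 202 bases before the start. Of 27025 mouse promoter windows of the same length, 15.6% held an NF-kB match. The Ticam1 window held the short PU.1 letters from 30 to 25 bases before the start, which 23.1% of windows held on either strand. The Myd88 window held an interferon stimulated element match from 40 to 32 bases before the start (7.16% of windows) and overlapping TATA box matches between 164 and 155 bases before it (12.97% of windows). The AP-1 letters and the longer PU.1 letters were in 6.87% and 2.44% of all windows. Neither was matched in the 5 windows, and the Irak1 window matched none of the motifs searched. These matches are letters in a window, not measured sites.

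Reads on genes numbered between 16380080 (MWT) and 23475080 (CxH), and counts were scaled to reads per 1000000 aligned reads (RPM), for which 3 reads stand for 0.0779 to 0.104 RPM. Ids had 135 RPM (95% counting interval 132 to 139) in CxH, 354 (347 to 360.1) in CxWT, 368 (362 to 374) in the library labelled MH and 155 (151 to 159.9) in the library labelled MWT. Of the M libraries, the one with the knock-out label therefore held more Ids reads. Area markers also differed from the area labels. The summed RPM of 8 genes of cerebral cortex neurons, such as Tbr1 and Neurod6, was high in CxH (1657) and MH (1533) and low in CxWT (311) and MWT (258). Slc17a7 made up most of it in CxH (1359 RPM) and MH (1240 RPM). In CxH vs. CxWT 7 of the 8 genes had ratios above 0, and Rasgrf2 went the other way (101 and 119 RPM). Of 10 genes of the midbrain and diencephalon, such as Slc6a3 and En1, the sum was low in CxH (20.5 RPM) and MH (31.0) and high in CxWT (447) and MWT (388), and 6 of them had at most 3 reads in CxH and 3 in MH. The part of area composition in the ratios below was not tested. Area markers thus ran against the labels of CxWT and MH, and Ids reads against those of MH and MWT. The labels of more than 1 library may be wrong, which these data cannot settle, and this would change what a ratio between genotypes or areas means. CxH and MH were alike in area markers, as were CxWT and MWT, so that CxH vs. MH and CxWT vs. MWT are the pairs of the study alike in area markers and different in Ids. Each library keeps the name of its label below, every direction is that of the labels, and since Ids reads in M run against the labels, the pairs CxH vs. MWT and MH vs. CxWT were compared beside the 4 comparisons of the study.

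Between 2 libraries a gene was called if it passed both thresholds given in the methods of the study, a p-value below 0.05 in a Poisson likelihood ratio test and a log2 ratio of RPM of at least 0.7 in size. With 1 library per condition, this test compares libraries and not conditions. Each ± is a standard error and each interval a 95% interval, both from counting alone, and no replicate check is possible for any ratio. Some ratios near the threshold crossed it under another scaling of the libraries, either the column totals of the counts or TMM factors, which come from a trimmed mean of ratios over genes. Differences in this bulk RNA do not distinguish fewer cells of a type from less RNA per cell.

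Tlr2, Tlr7 and Cd14 were called in the same 3 of the 4 comparisons of the study. All 3 were lower in MH than in MWT, higher in CxH than in MH, and lower in CxWT than in MWT, by 1.63-fold to 3.93-fold. Calls of all 3 genes depended on the processing. Tlr7 lost those of MH vs. MWT (-0.62) and CxWT vs. MWT (-0.66) after a correction for GC content and length. It also lost that of CxH vs. MH (0.69) with TMM factors. When a variation of 0.2 between pools was assumed, Tlr2 and Cd14 lost their calls in CxWT vs. MWT, where Tlr7 kept its own. Cd14 and Tlr7 then also lost those of CxH vs. MH. A log2 threshold of 1 left only the calls of Tlr2 and Cd14 in MH vs. MWT and of Tlr2 in CxH vs. MH. CxH and MWT, the libraries with the highest levels of these 3 genes, were also those with the fewest Ids reads per aligned read (135 and 155 RPM, against 354 in CxWT and 368 in MH). Tlr3, Myd88, Irak1 and Ticam1 were called in none of the 6 pairs, and between CxH and CxWT no gene of the 7 was called. The levels of the 7 genes summed to 95.9 RPM in MWT, 86.2 in CxH, 81.7 in CxWT and 75.4 in MH.

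**Figure D1:**
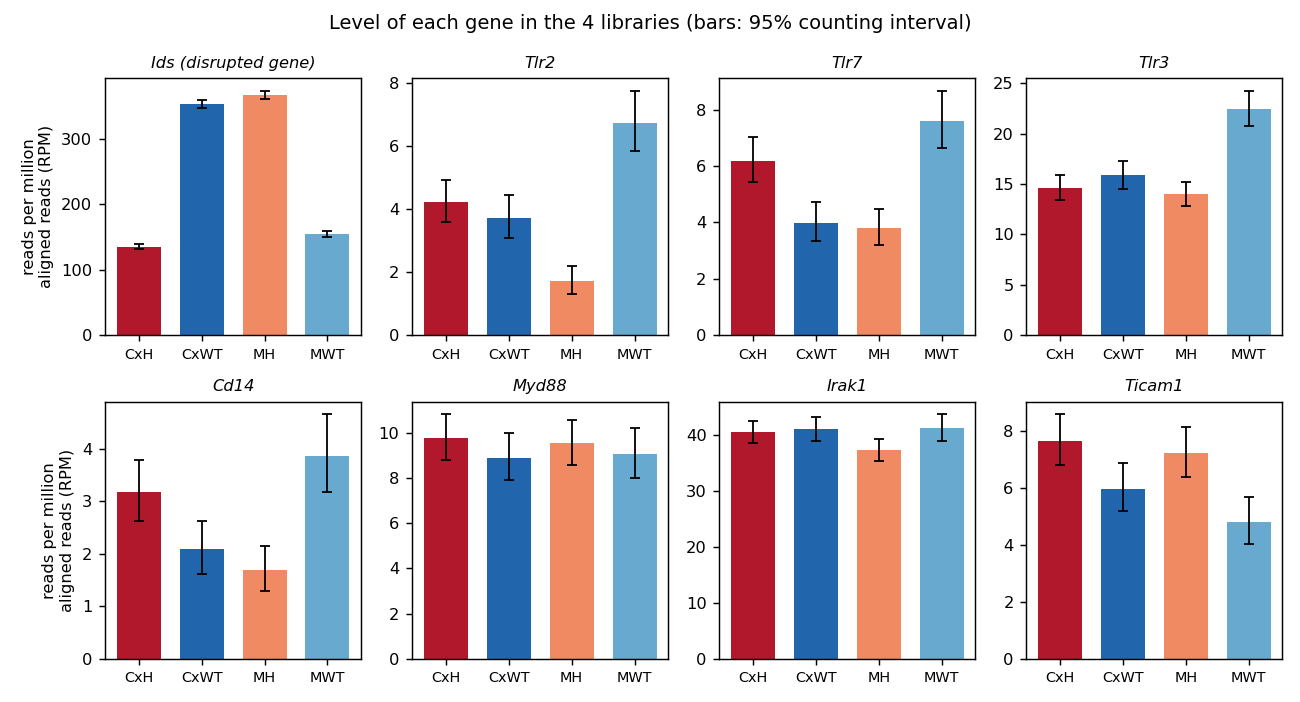
Level of Ids and of the 7 Toll-like receptor and adaptor genes in each library, in RPM on axes that start at 0, with bars for the 95% counting interval of 1 library each. Tlr2, Tlr7, Tlr3 and Cd14 were highest in MWT, while the 4 bars of Myd88 and of Irak1 were nearly level.

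Tlr2, the surface receptor for lipoproteins, lies on chromosome 3 from 83640195 to 83645689 of the mm9 build. CxH held 162 of its reads, CxWT 125, MH 64 and MWT 195. These are 4.21 RPM (3.58 to 4.91), 3.72 (3.10 to 4.43), 1.71 (1.32 to 2.19) and 6.74 (5.82 to 7.75). MWT stood above the other libraries and MH below them, while the intervals of CxH and CxWT overlapped. The log2 ratio was -1.98 ± 0.21 for MH vs. MWT, a 3.93-fold difference and the widest of the 7 genes. It was 1.30 ± 0.21 for CxH vs. MH and -0.86 ± 0.17 for CxWT vs. MWT. Between CxH and CxWT it was 0.18, with an interval from -0.16 to 0.51. Tlr2 was also called in MH vs. CxWT, at -1.12 ± 0.22, and was just outside the threshold in CxH vs. MWT, at -0.68 ± 0.15, but inside it with the column totals (-0.79).

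Tlr7, the endosomal receptor for single-stranded RNA, lies on chromosome X from 163742861 to 163768490. CxH held 238 of its reads, CxWT 134, MH 142 and MWT 220. In RPM these are 6.18 (5.42 to 7.02), 3.99 (3.34 to 4.72), 3.80 (3.20 to 4.48) and 7.60 (6.63 to 8.67). CxH and MWT were high and CxWT and MH low, with no overlap of intervals between the pairs. MH was below MWT, with a log2 ratio of -0.9999 ± 0.16. The log2 ratio was 0.70 ± 0.15 for CxH vs. MH, just inside the threshold and just outside it with TMM factors (0.69), and -0.93 ± 0.16 for CxWT vs. MWT. The ratio of CxH to CxWT was 0.63 ± 0.16, outside the threshold but inside it with TMM factors (0.73), and its interval from 0.33 to 0.94 lay above 0. Both high libraries and both low libraries were near each other, at -0.30 ± 0.13 for CxH vs. MWT (0.35 after a correction for GC content and length, a turn in direction) and -0.07 ± 0.17 for MH vs. CxWT.

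Cd14, the co-receptor that hands lipopolysaccharide and other ligands to Toll-like receptors, lies on chromosome 18 from 36884728 to 36886390. It was the gene of the set with the fewest reads, with 122 for CxH, 112 for MWT, 70 for CxWT and 63 for MH. In RPM these are 3.17 (2.63 to 3.78), 3.87 (3.19 to 4.66), 2.08 (1.62 to 2.63) and 1.69 (1.30 to 2.16). The order was that of Tlr7 and Tlr2, with the intervals of CxH and MWT overlapping, and those of CxWT and MH as well. The log2 ratio was -1.20 ± 0.23 for MH vs. MWT, 0.91 ± 0.22 for CxH vs. MH and -0.89 ± 0.22 for CxWT vs. MWT. CxH vs. CxWT, at 0.61 ± 0.22, was not called. Its interval went from 0.18 to 1.03.

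Tlr3, the endosomal receptor for double-stranded RNA, lies on chromosome 8 from 46481019 to 46495962. CxH held 564 of its reads, CxWT 534, MH 523 and MWT 651, or 14.6, 15.9, 14.0 and 22.5 RPM. MWT, with an interval from 20.8 to 24.3 RPM, stood above the other 3 libraries, whose intervals overlapped and lay between 12.8 and 17.3 RPM. The log2 ratio was -0.68 ± 0.085 for MH vs. MWT, just outside the threshold but inside it with the column totals as scaling (-0.75), and -0.50 ± 0.084 for CxWT vs. MWT. CxH vs. CxWT was -0.12, with an interval from -0.29 to 0.05.

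Myd88, the adaptor shared by most Toll-like receptors, lies on chromosome 9 from 119245052 to 119250529. It had 9.77 RPM in CxH (376 reads), 8.89 in CxWT (299 reads), 9.53 in MH (356 reads) and 9.05 in MWT (262 reads). The 4 levels spanned 1.10-fold, and the intervals of all 6 ratios held 0, from -0.26 at the lowest bound to 0.35 at the highest. The gene overlaps Acaa1a on the other strand, and since the use of strand in the counting is not given in the sources used here, reads of the overlap cannot be told apart.

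Irak1, the kinase that MyD88 recruits, lies on chromosome X from 71259253 to 71269257 and overlaps Mir718 and AL672002.1 on its own strand. It had 40.5 RPM in CxH (1561 reads), 41.1 in CxWT (1382 reads), 37.4 in MH (1398 reads) and 41.4 in MWT (1197 reads). MH was the lowest, and the 4 levels spanned 1.11-fold. The log2 ratio was -0.14 ± 0.057 for MH vs. MWT and -0.02 ± 0.053 for CxH vs. CxWT, and the latter turned to 0.07 with TMM factors as scaling.

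Ticam1, the adaptor of Tlr3, lies on chromosome 17 from 56408742 to 56416209. It had 7.66 RPM in CxH (295 reads), 5.98 in CxWT (201 reads), 7.23 in MH (270 reads) and 4.80 in MWT (139 reads). Its order thus placed MWT, the highest library for the 3 receptors and Cd14, at the bottom. Both libraries with the Ids-ko label were above both with the wt label, at log2 ratios of 0.36 ± 0.13 for CxH vs. CxWT and 0.59 ± 0.15 for MH vs. MWT, neither of which was called. After the GC and length correction these were 0.14 and 0.28. CxH and MH were also the libraries high in markers of cerebral cortex neurons, whose part in these ratios was not tested. The widest ratio was 0.67 ± 0.15 for CxH vs. MWT, just outside the threshold but inside it with TMM factors (0.72), and it was 0.21 after the GC and length correction. The intervals of CxH and MH overlapped, and the log2 ratio between them was 0.08 ± 0.12.

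Per kilobase of the longest protein-coding transcript, Irak1 had the highest level of the 7 genes in every library, at 9.76 to 10.8 RPM per kb. Myd88 followed with 4.54 to 4.98 RPM per kb, except in MWT, where Tlr3 had 5.20. In the other libraries Tlr3 had 3.23 to 3.67 RPM per kb. Ticam1 lay between 1.60 and 2.56 RPM per kb, Cd14 between 1.07 and 2.46, Tlr7 between 0.975 and 1.95, and Tlr2 between 0.569 and 2.24. On this scale the downstream genes Irak1 and Myd88 were thus more abundant than Tlr2, Tlr7 and Cd14 in each of the 4 libraries.

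The calls among the 7 genes were read against those over the whole table. In MH vs. MWT, 3 of 7 were called lower (Tlr2, Tlr7 and Cd14) and none higher, where 12.7% of the 12700 genes were called lower and 12.3% higher. In CxH vs. CxWT, 0 of 7 were called, where 9.46% of all genes were called higher and 11.5% lower. In CxH vs. MH, 3 of 7 were called higher and none lower, against 2.43% and 1.06% of all genes. In CxWT vs. MWT, 3 of 7 were called lower and none higher, against 2.11% and 5.43%. The 4 comparisons share libraries, so these counts are not independent of each other.

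Of the remaining pairs, CxH vs. MWT gave no call among the 7 genes, where 15.6% of all genes were called higher and 15.1% lower. MH vs. CxWT gave 1 call, Tlr2 as lower, where 6.41% of all genes were called higher and 8.89% lower. These shares move with the scaling. With TMM factors the calls over all genes went from 1201 higher and 1457 lower to 1447 and 1135 in CxH vs. CxWT, and from 814 and 1129 to 1013 and 855 in MH vs. CxWT. With the column totals they went from 309 and 135 to 257 and 183 in CxH vs. MH, from 690 and 268 to 480 and 390 in CxWT vs. MWT, and from 1980 and 1915 to 1609 and 2504 in CxH vs. MWT. The median log2 ratio of all genes was between -0.09 and 0.04 in 5 pairs and -0.11 in MH vs. CxWT.

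**Figure D2:**
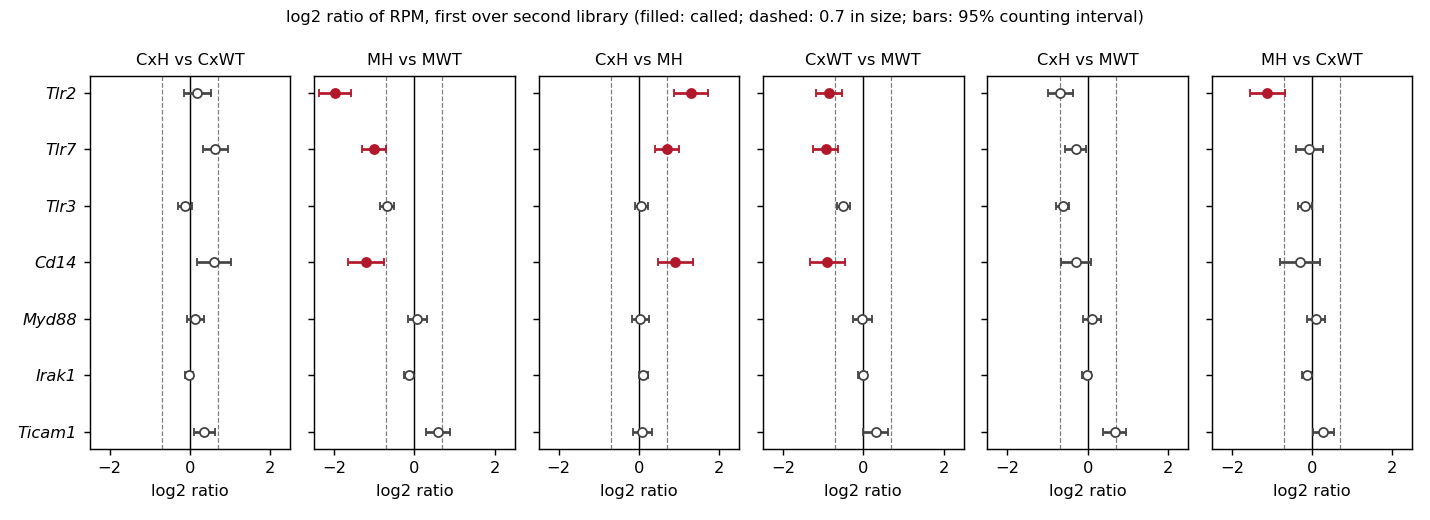
Log2 ratio of RPM, first over second library, of the 7 genes in the 6 pairs of libraries, with bars for 95% counting intervals, filled points for called genes and dashed lines at 0.7 in size. Tlr2, Tlr7 and Cd14 are filled in CxWT vs. MWT, CxH vs. MH and MH vs. MWT, and no point is filled in CxH vs. CxWT.

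GC content of the transcripts moved with the ratios over the table. Across 10702 genes, which are not independent replicates and share the same libraries, Spearman's rho between GC content and the log2 ratio was 0.461 for CxH vs. CxWT, 0.487 for MH vs. MWT, 0.582 for CxH vs. MH, 0.629 for CxWT vs. MWT, 0.686 for CxH vs. MWT and 0.163 for MH vs. CxWT. The transcripts of Tlr3 and Tlr7, at 39.8% and 41.0% GC, were lower in GC than those of Tlr2 (49.4%), Irak1 (52.8%), Cd14 (53.2%), Myd88 (53.6%) and Ticam1 (56.4%). After a correction for GC content and length, the log2 ratio of Tlr2 was -1.87 for MH vs. MWT and -0.76 for CxWT vs. MWT, and that of Cd14 was -1.11 and -0.85. Tlr7 lost both calls under the correction, at -0.62 and -0.66, and gained one in CxH vs. CxWT, at 1.01. Tlr3 moved from -0.68 to -0.29 in MH vs. MWT and from -0.50 to -0.24 for CxWT vs. MWT, and its direction turned from -0.12 to 0.30 in CxH vs. CxWT and from -0.62 to 0.07 in CxH vs. MWT. Ticam1 moved from 0.36 to 0.14 in CxH vs. CxWT, from 0.59 to 0.28 in MH vs. MWT and from 0.67 to 0.21 in CxH vs. MWT, and turned from 0.08 to -0.07 in CxH vs. MH.

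The median of the microglia markers moved in the direction of Tlr2, Tlr7 and Cd14 in the 4 comparisons of the study. Of 15 markers listed, 14 had values, and none was at 0 reads in any library. Their summed RPM was 807 in CxH and 666 in MWT, against 510 in MH and 435 in CxWT. The 2 libraries with the higher sums, CxH and MWT, were also the 2 highest for Tlr2, Tlr7 and Cd14. In CxH vs. CxWT all 14 had ratios above 0, with a median log2 ratio of 0.88 and 8 called higher, where 9.46% of all genes were. In MH vs. MWT 10 of 14 had ratios below 0, with a median of -0.38 (-0.24 after the GC and length correction). Aif1, Tyrobp, C1qa and Fcrls were called lower, where 12.7% of all genes were. Cx3cr1, P2ry12, Tmem119 and Csf1r had ratios above 0 there, up to 0.48 for Tmem119. For CxH vs. MH the median was 0.69, with 7 called higher (2.43% of all genes). For CxWT vs. MWT it was -0.55, with 6 called lower (2.11% of all genes). In MH vs. CxWT all 14 markers had ratios above 0, with a median of 0.28, while Tlr2 (-1.12), Cd14 (-0.30) and Tlr7 (-0.07) were below 0, of which Tlr7 turned to 0.04 with TMM factors and 0.05 after the GC and length correction. In CxH vs. MWT the median of the markers was 0.26, while the ratios of the same 3 genes were below 0 (-0.68, -0.29 and -0.30), of which Tlr7 turned to 0.35 after that correction. Tlr2, at -1.98 in MH vs. MWT, was lower than each of the 14 markers, of which Tyrobp had the lowest ratio, -1.497. In CxH vs. CxWT Tlr2, at 0.18, was below each of the 14, of which the lowest was at 0.32. Markers of blood neutrophils and monocytes, of which 3 had values, also summed higher in CxH (5.90 RPM) and MWT (5.35) than in CxWT (3.12) and MH (1.87). The part of microglial content and of blood cells in the ratios of Tlr2, Tlr7 and Cd14 was not tested.

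**Figure D3:**
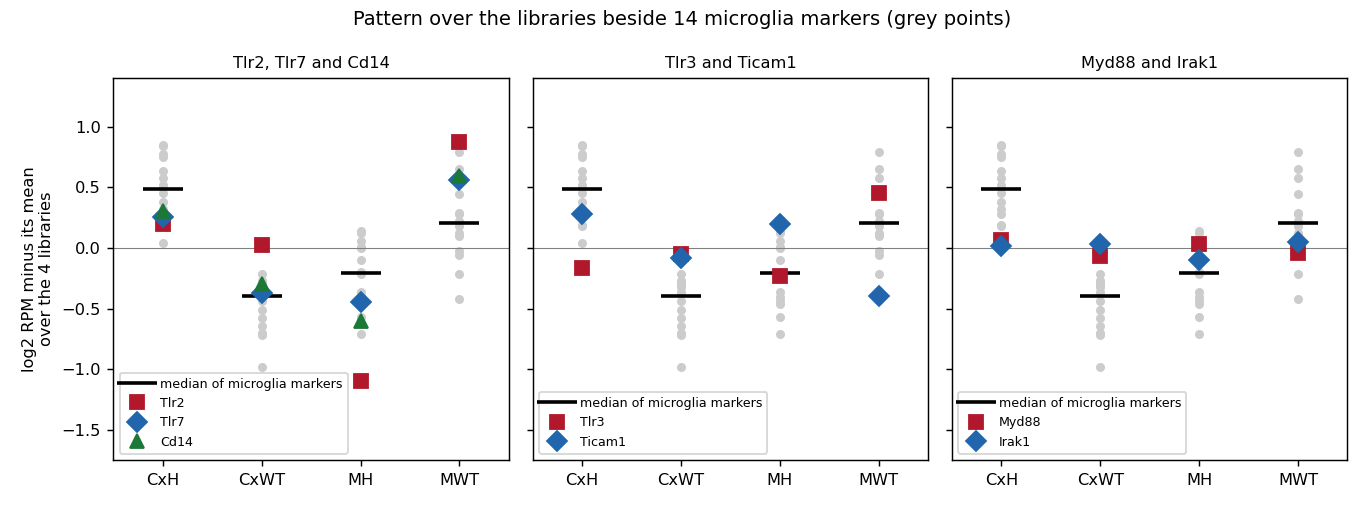
Log2 RPM of each of the 7 genes minus its mean over the 4 libraries, with 14 microglia markers as grey points and their median as a black line. Tlr2, Tlr7 and Cd14 lie above 0 in CxH and MWT, where the median of the microglia markers does as well, while Ticam1 lies lowest in MWT and Myd88 and Irak1 stay near 0.

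For the 3 genes with the widest range over the libraries, the genes with the nearest pattern were taken by the distance between log2 RPM centred over the 4 libraries, among the 11010 genes that had 100 or more reads in each library. The nearest to Tlr7 were Rps3a1 at a distance of 0.040, Ifngr1 (a chain of the interferon gamma receptor) at 0.065, Mrpl20 at 0.088, Rnaset2a at 0.089 and Ly6a at 0.097. Rps3a1 is a ribosomal protein gene with processed copies in the genome, so that its count is uncertain. For Ifngr1, CxH held 619 reads, MWT 584, MH 393 and CxWT 358. The nearest to Cd14 were Tmem147 at 0.070, Mrps21 at 0.076, Lcp1 (an actin-bundling protein of white blood cells and microglia) at 0.096, Arpc5l at 0.127 and Ly6a at 0.153. No gene came as near to Tlr2, for which the 5 nearest were Ppcs at 0.46, Dbi at 0.50, Apod at 0.51, Ctsl (the lysosomal protease cathepsin L) at 0.54 and Ndufs4 at 0.55. With 4 libraries, such a distance is a description of these libraries only.

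Of 75 other genes of the pathway, in 8 groups, 49 had values. Of these 49, 12 were called higher and 2 lower in CxH vs. CxWT, where the shares over all genes were 9.46% and 11.5%. In MH vs. MWT 2 were called higher and 9 lower, beside 12.3% and 12.7% of all genes. In CxH vs. MH 6 were called higher and none lower (2.43% and 1.06% of all genes), and for CxWT vs. MWT none higher and 9 lower (5.43% and 2.11%). Their median log2 ratio was 0.10 in CxH vs. CxWT and -0.11 in MH vs. MWT, where the medians of all genes were -0.09 and -0.07. For CxH vs. MH it was 0.10 and for CxWT vs. MWT -0.12, where all genes had 0.01 and 0.04.

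Of 8 other Toll-like receptors, Tlr9 and Tlr13, both endosomal receptors for nucleic acids, had values. For Tlr13, MWT held 286 reads (9.88 RPM), CxH 279 (7.25), MH 175 (4.68) and CxWT 152 (4.52). It was called lower in MH vs. MWT (-1.08 ± 0.14) and in CxWT vs. MWT (-1.13 ± 0.14), and its ratio in CxH vs. CxWT was 0.68 ± 0.15, outside the threshold but inside it with TMM factors (0.77) and after the GC and length correction (0.94). Its order, with MWT and CxH high, was near that of Tlr7. Tlr9 had 5.04 RPM in CxH, 3.10 in MH, 2.53 in CxWT and 2.49 in MWT, with CxH alone high. It was called higher in CxH vs. CxWT, at 0.99 ± 0.19.

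Of 8 co-receptors and chaperones, 7 had values. Unc93b1, which carries the endosomal receptors out of the endoplasmic reticulum, was called higher in CxH vs. CxWT (22.6 and 10.3 RPM, 1.14 ± 0.092). In MH and MWT it had 14.1 and 14.8 RPM. Cd180 and its partner Ly86 (MD-1), which form a surface receptor related to Tlr4, were both called lower in MH vs. MWT, at -1.48 ± 0.21 and -1.55 ± 0.10, and in CxWT vs. MWT, at -0.81 and -1.24. Ly86 had 21.8 RPM in MWT, 13.2 in CxH, 9.25 in CxWT and 7.44 in MH, and was also called higher in CxH vs. MH, at 0.83. Ly96 (MD-2), the partner of Tlr4 that binds lipopolysaccharide, had between 16 and 21 reads per library, too few for a ratio to be precise. Cd180 overlaps Mast4, and it lost its call in CxWT vs. MWT after the GC and length correction (-0.59).

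Of 4 other adaptors, Sarm1 and Pik3ap1 had values, and Pik3ap1 (BCAP) was called higher in CxH vs. CxWT, at 0.83 ± 0.18. Of 16 kinases and ubiquitin ligases, 15 had values. Ube2n, the ubiquitin-conjugating enzyme that works with Traf6, was the only one of them called in the 4 comparisons of the study. It was called lower in CxH vs. CxWT at -0.83 ± 0.041, and this call was lost after the GC and length correction (-0.43). With TMM factors Irak2 was called higher in MH vs. MWT as well (0.73). Of 7 inhibitors 4 had values, and Tnfaip3 (A20), which removes ubiquitin chains in this pathway, was called higher in CxH vs. CxWT at 1.10 ± 0.19. Its levels were 5.43 RPM in CxH, 4.74 in MH, 3.66 in MWT and 2.53 in CxWT.

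Of 9 transcription factors, 7 had values. Irf8, a factor of microglia and other myeloid cells, was called higher in CxH vs. CxWT (9.82 and 4.64 RPM, 1.08 ± 0.14) and in CxH vs. MH (0.87), and it overlaps Gm20388. Irf7, which induces type I interferon genes, was called lower in CxH vs. CxWT (2.47 and 5.09 RPM, -1.04 ± 0.18) and overlaps Phrf1. Relb, a subunit of NF-kB, was called higher in MH vs. MWT (4.04 and 1.93 RPM, 1.06 ± 0.23). In all, 1 of the 7 was called higher and 1 lower in CxH vs. CxWT, where 9.46% and 11.5% of all genes were. In MH vs. MWT 1 was called higher and none lower, beside 12.3% and 12.7% of all genes.

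Of 15 cytokine and other targets, 6 had values. Ptgs2, the inducible cyclooxygenase, had 14.4 RPM in MH (539 reads), 11.6 in CxH (446 reads), 7.22 in MWT (209 reads) and 2.47 in CxWT (83 reads). It was called higher in both libraries with the Ids-ko label, at 2.23 ± 0.17 in CxH vs. CxWT and 0.999 ± 0.12 in MH vs. MWT, and lower in CxWT vs. MWT, at -1.55. Cortical neurons also express Ptgs2, and the markers of cerebral cortex neurons had median log2 ratios of 3.19 in CxH vs. CxWT and 3.53 in MH vs. MWT. Their part in the Ptgs2 ratios was not tested. The chemokine genes Ccl3 and Ccl5 went the other way in M. Ccl3 had 44 reads in MWT, 30 in CxH, 12 in CxWT and 8 in MH. Its log2 ratios were 1.13 ± 0.49 in CxH vs. CxWT and -2.83 ± 0.55 in MH vs. MWT. Ccl5 had 29, 35, 13 and 8 reads in the same order, with 1.23 ± 0.47 and -2.23 ± 0.58, of which the first lost its call after the GC and length correction (0.85). Both were also called in CxH vs. MH, as higher, and in CxWT vs. MWT, as lower. Nfkbiz, an inducible regulator of NF-kB targets, was called higher in CxH vs. CxWT at 0.71 ± 0.17, a call lost with the column totals and after the GC and length correction (0.69 in both). Ccl2, with at most 20 reads in any library, was called lower in CxWT vs. MWT and in MH vs. MWT, the latter not after the GC and length correction.

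Of 8 endogenous ligands proposed for these receptors, 6 had values. S100a8 and S100a9, the calgranulins, were called higher in CxH vs. CxWT (0.72 ± 0.27 and 1.21 ± 0.41) and lower in MH vs. MWT (-2.02 ± 0.35 and -1.92 ± 0.42). For S100a8, CxH held 85 reads, MWT 69, CxWT 45 and MH 22, and for S100a9 the reads in that order were 45, 47, 17 and 16. Both are also markers of blood neutrophils and monocytes, of which 3 of 6 had values, with summed levels of 5.90 RPM in CxH, 5.35 in MWT, 3.12 in CxWT and 1.87 in MH, and the part of blood cells in them was not tested. Hmgb1, a nuclear protein released by damaged cells, was called lower in MH vs. MWT at -1.11, with 19.1 RPM (17.7 to 20.5) and 41.1 (38.8 to 43.6). This call was lost after the GC and length correction (-0.62). Fn1, fibronectin, was called higher in CxH vs. CxWT at 0.97 ± 0.053 (61.6 and 31.4 RPM) and overlaps Apol7d.

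In the pairs that differ in both labels, 3 of the 49 were called higher and 9 lower in CxH vs. MWT, beside 15.6% and 15.1% of all genes. In MH vs. CxWT 2 were called higher and 2 lower, beside 6.41% and 8.89%, which is near the share over all genes. These 4 were Ptgs2 at 2.55 ± 0.17, Tnfaip3 at 0.91 ± 0.19, Irf7 at -0.71 ± 0.17 and S100a8 at -1.18 ± 0.38. With TMM factors Irf7 was outside the threshold (-0.60), and Nfkbiz (0.71) and Relb (0.75) were inside it.

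**Figure D4:**
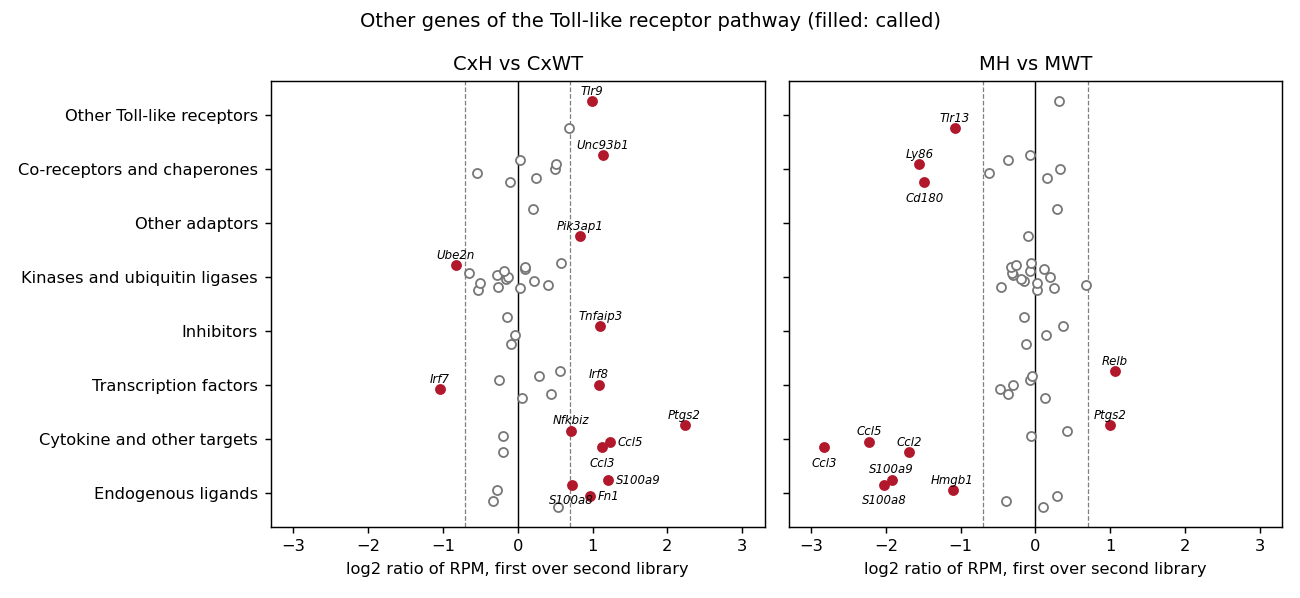
Log2 ratio of RPM of the 49 other pathway genes by group, for CxH vs. CxWT on the left and MH vs. MWT on the right, with filled and named points for called genes and dashed lines at 0.7 in size. On the left 12 of the 14 filled points lie above 0, and on the right 9 of the 11 lie below 0, with Ptgs2 above 0 on both sides.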

How the data were processed

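The authors sequenced polyA RNA on a SOLiD 3 Plus instrument, aligned it to mm9 with PASS 2.10 (best hit, at most 2 mismatches, no gap) and kept only reads that hit 1 gene and only genes with more than 50% of the length under reads. The deposited counts are reads per gene, without normalization. The gene annotation and the use of strand are not given in the sources used here.

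RPM are counts scaled to the number of aligned reads that the study states for each library. Ratios set a count of 0 to 1. Symbols were found for 12690 of 12700 genes by Entrez identifier, and GENCODE vM1 (mm9) gave positions, transcript lengths and GC content. All genes were tested by a likelihood ratio test on Poisson counts. Libraries without replicates allowed no fit of variation, and no p-value is printed. The calls were tested on simulated data with known changes. The simulated counts varied by counting alone, without variation between pools or a GC trend, so this checked the calculation only.

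The genes, the pathway lists and the marker lists were chosen with earlier results of these data known. Named were the genes of the set, Ids, pathway genes called in a comparison of the study with at least 30 reads in either library (at most 8 per list), the 5 nearest patterns of 3 genes, and sets of 5 or fewer. Ccl2, Ly96, Irak2 and markers named as examples lie outside this rule and were chosen after their values were seen. Alternatives were column totals, edgeR TMM factors, DESeq2 size factors, a minimum of 100 reads, adjustment of p-values by Benjamini-Hochberg, a log2 threshold of 1, 0.5 added to counts, an assumed biological coefficient of variation of 0.2 in the exact test of edgeR, and a cubic regression on GC content and length. The software was edgeR 4.0.16 and DESeq2 1.42.0 under R 4.3.3, and scipy 1.17.1, pandas 2.3.3, numpy 2.4.6 and matplotlib 3.10.9 under Python 3.11.15.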

Additional observations from a re-analysis of the deposited data

Results flagged for a closer look

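Flagged were genes with 2 ratios of opposite sign whose counting intervals both lay away from 0. Taken by their labels, Ids, Tlr7 and Cd14 had such ratios between genotypes in the 2 areas, and Ids, Tlr2, Tlr7 and Cd14 between areas in the 2 genotypes. Tlr2 also had opposite signs between genotypes (0.18 in CxH vs. CxWT and -1.98 in MH vs. MWT), but the interval of the first held 0. These signs rest on labels that the Ids reads and the area markers go against. In the pairs most alike in area markers, CxWT vs. MWT as well as CxH vs. MH, the library with fewer Ids reads (CxH and MWT) had the higher level of Tlr2, Tlr7 and Cd14. Some area markers were called in both of these pairs as well. With 1 library per condition, none of these differences was tested, and each contrast rests on the same 4 libraries. The log2 ratio of Ids was -1.39 in CxH vs. CxWT and 1.24 in MH vs. MWT, with -1.44 for CxH vs. MH and 1.19 for CxWT vs. MWT. For Tlr7 the ratios were 0.63 in CxH vs. CxWT and -0.9999 in MH vs. MWT, with 0.70 for CxH vs. MH and -0.93 for CxWT vs. MWT. For Cd14 they were 0.61 and -1.20 between genotype labels, and 0.91 and -0.89 between areas. Tlr2 had 1.30 for CxH vs. MH and -0.86 for CxWT vs. MWT.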

How the results depend on the processing

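Called genes among the 7 changed as follows. In CxH vs. CxWT, with 0 called, TMM factors, DESeq2 size factors and the GC and length correction each gave 1, Tlr7 at 0.73, 0.72 and 1.01. In MH vs. MWT, with 3 called, a threshold of 1 and the GC and length correction each left 2, without Tlr7, and the column totals gave 4. In CxH vs. MH, with 3 called, a log2 threshold of 1 and an assumed variation of 0.2 between pools each left 1, Tlr2. In CxWT vs. MWT, with 3 called, they left 0 and 1 (Tlr7). In CxH vs. MWT, with 0 called, the column totals gave 2 (Tlr2 at -0.79 and Tlr3 at -0.73), and TMM and DESeq2 factors gave 1 each (Ticam1 at 0.72 and 0.71). Tlr7 in CxH vs. MH fell under the threshold with the column totals (0.66), TMM factors (0.69), DESeq2 factors (0.68) and 0.5 added to counts (0.6997). Tlr3 in MH vs. MWT passed it with the column totals (-0.75).

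Called genes among the other 49 went from 14 to 8 (log2 threshold of 1) and 9 (assumed variation) in CxH vs. CxWT. A minimum of 100 reads took them from 11 to 6 in MH vs. MWT, from 6 to 2 in CxH vs. MH and from 9 to 4 in CxWT vs. MWT. In CxH vs. MWT they went from 12 to 2 (threshold of 1), 5 (assumed variation) and 3 (GC and length), and in MH vs. CxWT from 4 to 2 under the threshold of 1 and under the assumed variation. No called ratio of the 7 genes changed sign under any alternative run. The microglia medians after the GC and length correction, an alternative chosen after seeing the data, were 0.77 in CxH vs. CxWT and -0.24 in MH vs. MWT. Depth limits the genes with under 100 reads in several libraries, among them Cd14, S100a8, S100a9, Ccl2, Ccl3, Ccl5 and Ly96, and leaving out a library was not possible with 1 per condition. No paired analysis was possible because each condition has 1 library.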

Other observations

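Markers of other cell types also differed between the libraries. All 6 oligodendrocyte markers with values were called lower in CxH vs. CxWT, where 11.5% of all genes were. Of them Cnp was outside the threshold with TMM factors (-0.63). The summed levels of the 6 were 9056 RPM in CxWT, 7174 in MWT, 4947 in MH and 4762 in CxH. The 6 astrocyte markers summed to 1968, 2525, 2435 and 2939 RPM in the same order of libraries. They did not move together, since in CxH vs. CxWT Gfap (1.11) and Slc1a2 (0.84) were called higher and Aqp4 (-0.80, and -0.43 without a call after the GC and length correction) lower, and Slc1a2 made up the largest share of the sum in CxH. The 5 endothelial markers summed to 118, 143, 121 and 157 RPM. Of 3 red cell markers 2 had values, with sums of 254, 77.1, 186 and 125 RPM. The red cell sum was lowest in MWT, the library with the highest levels of Tlr2, Tlr7 and Cd14. Most of that sum was Hba-a1 (70.1 RPM in MWT). Markers of blood neutrophils and monocytes were instead high in CxH (5.90 RPM) and MWT (5.35) and lower in CxWT (3.12) and MH (1.87). The part of blood cells in the ratios of Tlr2, Tlr7 and Cd14 was not tested.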
